A study of Mus musculus with 6 samples.

Results

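The genes described are the nuclear genes for proteins of the mitochondrial ribosome, taken as every symbol that starts with Mrpl or Mrps followed by a digit in the gene count tables. The rule found 76 of 12718 genes, 47 named for the large subunit (Mrpl) and 29 named for the small subunit (Mrps), and the same 76 were present at all 3 regions counted. It uses names alone, with no measured value. RNA polymerase II was mapped by ChIP-seq, the sequencing of DNA that comes down with a protein, here RPB1, the largest polymerase subunit, caught through its N-terminal domain (NTD). Adrenal glands came from 3 wild-type (WT) and 3 Armc5(-/-) female mice of the strain 129 sv X CD1, at an age of 10 to 14 months. The Armc5 protein carries armadillo repeats, and the design asks how RPB1 on genes differs without it. No other allele, and no treatment, is named for either group, and the number of glands pooled for a library is not stated in the sources used here. The 6 libraries carry 6 different mouse numbers, so n = 3 mice per genotype throughout.

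Mitochondrial ribosomes translate the few messages encoded by mitochondrial DNA, all for subunits of the respiratory chain and ATP synthase. Their RNA comes from the mitochondrial genome, while every protein of both subunits is encoded in the nucleus, made in the cytosol and imported. The small subunit reads the messenger RNA, and the large subunit forms the peptide bonds. In the adrenal cortex mitochondria also hold the first and last steps of steroid synthesis, and the respiratory chain is prominent there. RPB1 occupancy shows where polymerase sits on a gene, often with a peak near the start where polymerase pauses, and is not a measure of the transcript.

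The 6 libraries held 14511177 to 28190157 counts over the 3 regions, which are the start of transcription (TSS), its end (TES) and the gene body. Levels are in CPM, the counts of a gene relative to the scaled total of that region's table in that library. A member had between 10 and 846 counts at the TSS of a library, 25 and 5392 over its gene body and 23 and 1059 at its TES, and all 76 passed the low-count filter of every test. WT replicates 1 and 2 and knockout replicate 1 were the shallowest libraries. Of the members' counts over the 3 regions, 18.1%, 15.7% and 22.5% lay at the TSS in the WT libraries and 20.2%, 23.4% and 21.1% in the knockout libraries. Over all genes those shares were 8.34%, 7.81% and 11.2% in WT and 9.93%, 12.1% and 10.5% in the knockout. Library totals and TSS shares thus differed between mice of one genotype, and the part of depth in the member values was examined only with a depth class in the fits. All 7 adrenal cortex markers and 4 of 5 medulla markers were among the genes counted. Of the listed adipocyte, kidney and liver markers 0 of 4, 0 of 4 and 0 of 2 were, so no level can be given for those tissues. Armc5 itself was not analysed here, so the genotype labels were not checked against the targeted gene in any library.

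In WT glands most members carried more RPB1 at the start than the typical gene. Their median TSS level was 71.96 CPM, against 54.29 CPM for all genes, and 50 of 76 (65.8%) lay above that all-gene median. By library, the members' median was 69.2, 65.2 and 75.2 CPM over the WT libraries and 70.1, 68.5 and 70.6 CPM over the knockout ones, so the genotypes overlapped. Small subunit genes had a median of 74.0 CPM and large subunit genes 70.3 CPM in WT, and small exceeded large in all 6 libraries. The order was spread widely within each subunit, from 9.18 to 198 CPM for large and from 12.5 to 218 CPM for small subunit genes. These are levels per counted window; how wide the windows at the TSS and TES are, and whether every gene has the same, is not stated in the sources used here.

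**Figure D1:**
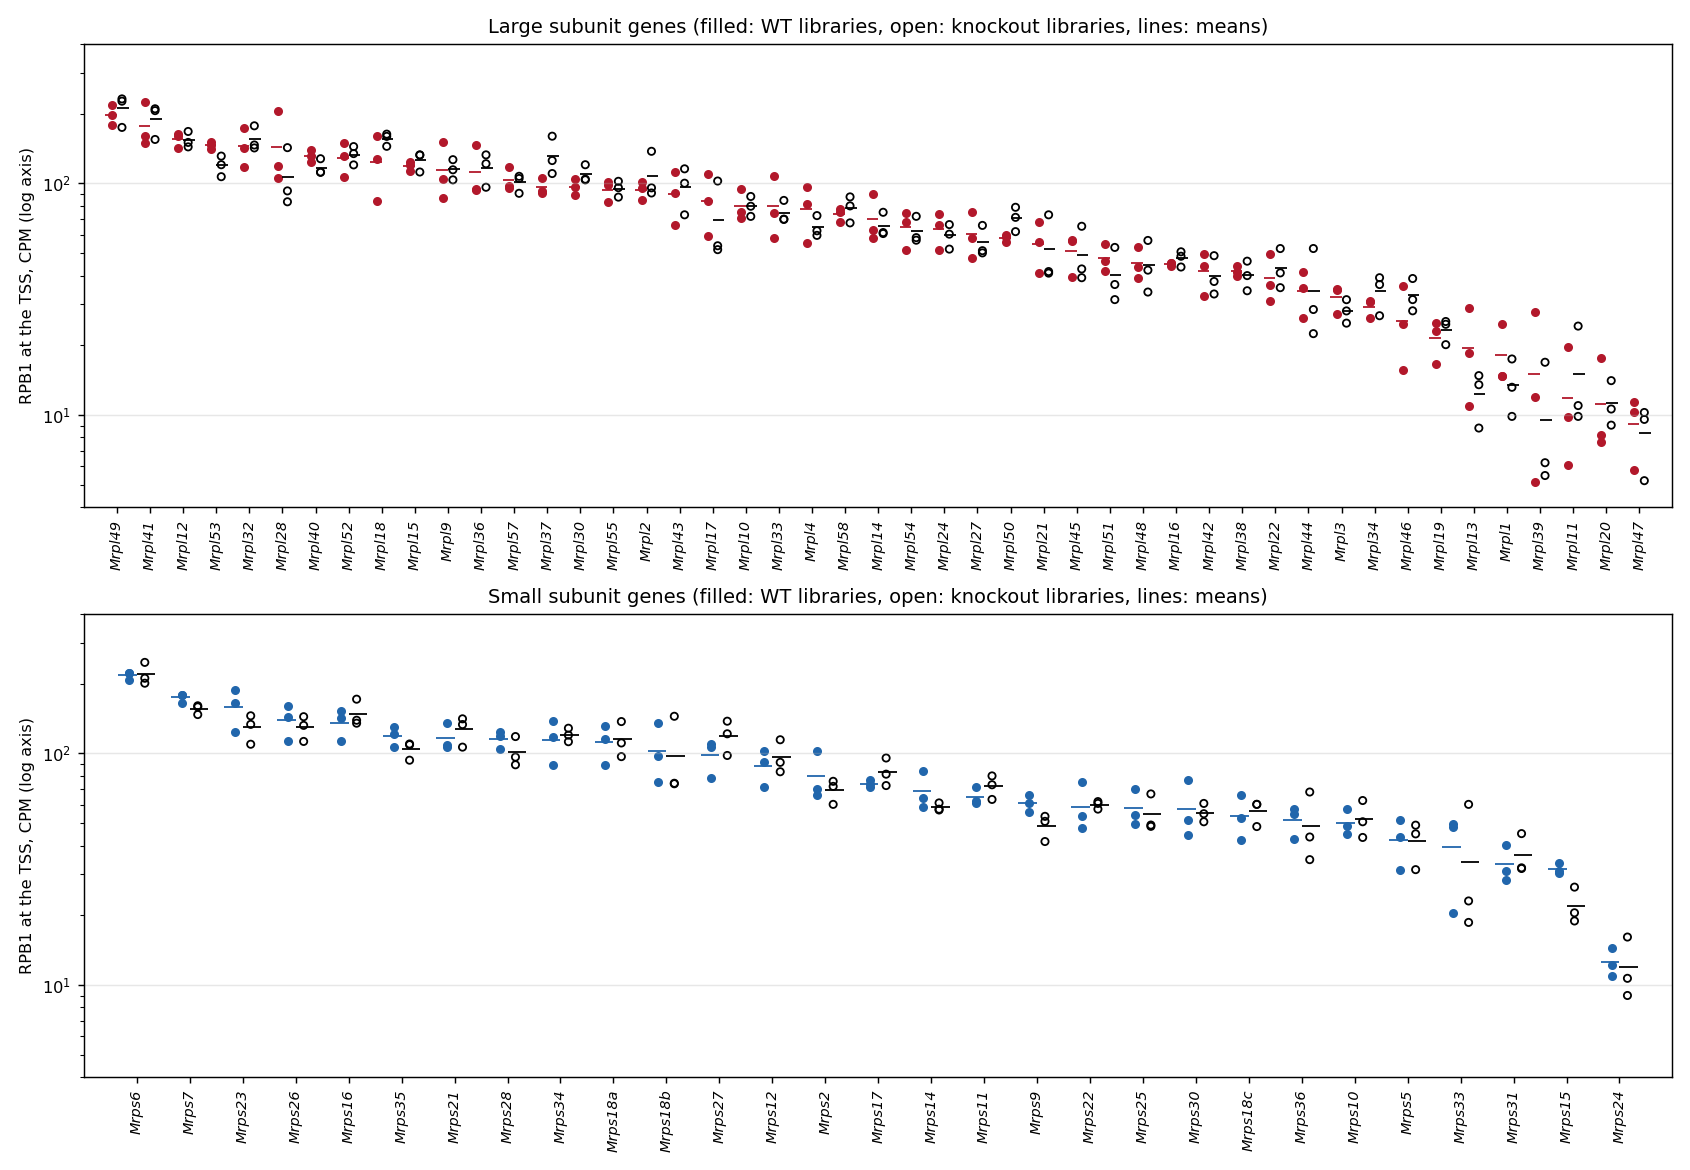
RPB1 at the TSS of each member in CPM on a log axis, large subunit genes above and small subunit genes below, ordered by WT mean. Filled points are the 3 WT libraries, open points the 3 knockout libraries and short lines the means; the genes run from Mrps6 at 218 CPM to Mrpl47 at 9.18 CPM in WT, and for most genes the filled and open points overlap.

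Mrps6, a small subunit protein with a bacterial counterpart, had the highest TSS level. It gave 222, 223 and 207 CPM in the WT libraries. The start of Slc5a3, a gene for a myo-inositol transporter, lies next to it and gave 217, 220.3 and 268 CPM, and reads of the 2 starts cannot be told apart. Mrpl49, a large subunit protein specific to mitochondria, followed with 198, 179 and 218 CPM. Mrpl41, another large subunit protein without a bacterial counterpart, gave 160.1, 149 and 224 CPM, and Mrps7, a conserved protein of the small subunit head, gave 179, 179 and 166 CPM. The WT libraries of these 4 genes overlapped between neighbours in that order, so their ranks are not separated by the spread between mice, except that each Mrps6 library lay above each Mrps7 library. At the other end, Mrpl11, a protein of the ribosomal stalk base, gave 9.80, 19.6 and 6.08 CPM. Mrpl20, which binds ribosomal RNA in the large subunit, gave 8.17, 17.6 and 7.68 CPM. Mrpl47 gave 11.4, 10.3 and 5.76 CPM and was the lowest of all 76, although its range overlapped that of Mrpl20 and Mrpl11.

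Members low at the start were not all low along the gene. In the gene body, per kb of gene, Mrpl20 had 5.64 CPM and Mrpl47 4.25 CPM, each above the all-gene median of 1.73 CPM per kb. The clearest case was Mrps24, a conserved small subunit protein that lines the messenger RNA entry, with 10.9, 14.5 and 12.2 CPM at the TSS but 17.6, 15.4 and 24.5 CPM per kb in the gene body. Whether the counted windows sit on the start sites used in adrenal glands was not tested.

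Per kb, the members' median gene body level was 2.55 CPM in WT, against 1.73 CPM per kb for all genes. Of the 76 members, 61 (80.3%) lay above the all-gene median. Without division by length the members' median was 21.6 CPM, against 42.8 CPM for all genes. Only 9 of 76 (11.8%) then lay above the all-gene median. Levels per kb were not compared with those of genes of similar length. Large subunit genes had a median of 3.14 CPM per kb and small subunit genes 2.30. Per kb, large exceeded small in all 6 libraries, the reverse of the order at the TSS. That reversal depended on the division by length, since without it the small subunit median in WT was the higher. Large subunit genes are also shorter, with a median of 7.05 kb against 8.88 kb. Mrps34, a mitochondria-specific small subunit protein, had the highest level with 27.2, 16.9 and 31.4 CPM per kb. Mrps34 spans only 1.17 kb, and without division by length its WT mean was 29.4 CPM, below the all-gene median of 42.8 CPM. Per kb it was followed by Mrpl33, a short large subunit protein, with 23.5, 17.4 and 19.6 CPM per kb, and by Mrps24. Both lay above that all-gene median without the division, at 175 and 71.4 CPM. Per kb these 3 genes overlapped in their WT libraries. The lowest were Mrps27, a pentatricopeptide-repeat protein of the small subunit (1.10, 1.27 and 0.932 CPM per kb), Mrpl42 (0.959, 1.33 and 0.973 CPM per kb) and Mrps28 (1.05, 1.15 and 0.833 CPM per kb), again with overlapping libraries. Mrps28 and Mrps27 are also among the longest members, at 122 and 70.8 kb.

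**Figure D2:**
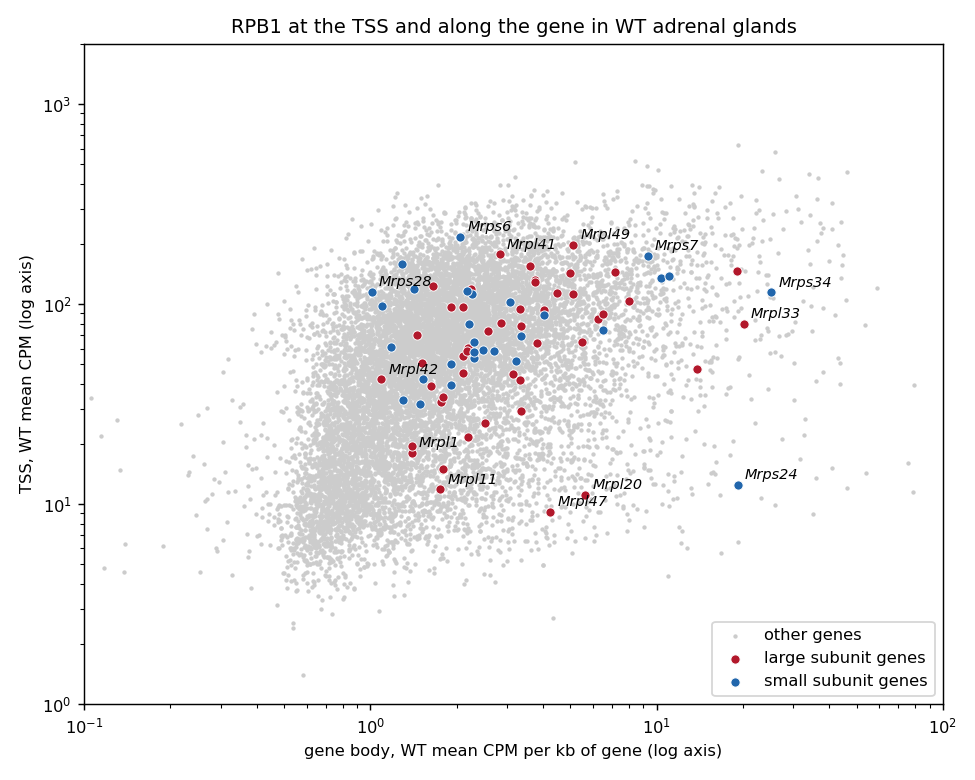
RPB1 at the TSS (WT mean CPM) against RPB1 in the gene body (WT mean CPM per kb of gene), both on log axes, for all genes with a RefSeq length (grey) and the members (red large, blue small). The members lie mostly in the upper middle of the cloud, with Mrps34 and Mrpl33 far right, and Mrps24, Mrpl20 and Mrpl47 low at the TSS with gene body levels above the all-gene median of 1.73 CPM per kb.

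At the TES the members were close to other genes, with a median of 49.5 CPM in WT against 48.3 CPM for all genes. Large subunit genes had 50.7 CPM and small subunit genes 47.8 CPM there. Cytosolic ribosomal protein genes, which also encode a large set of ribosomal proteins, differed from the members at every region, with medians of 139.5 CPM at the TSS, 9.84 CPM per kb in the gene body and 169.6 CPM at the TES. The 89 nuclear respiratory chain genes were closer, at 73.7 CPM, 3.33 CPM per kb and 69.2 CPM. No test was made between these lists.

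The members are short genes, with a median length of 7.61 kb against 23.1 kb for all genes, and this bears on how TSS and gene body counts compare. In WT the median log2 ratio of TSS to gene body CPM was 1.69 for members and 0.29 for all genes. The 2853 genes between the members' length quartiles, 3.94 and 12.6 kb, had a median of 1.32. Across genes the ratio and the length had a Spearman correlation of -0.65 over the 76 members and -0.70 over all genes with a length, given as descriptions of genes that share libraries. The ratio was higher for large (1.75) than for small subunit genes (1.53). For TES to gene body the median was 1.503 for members, 0.28 for all genes and 1.49 for the genes of similar length.

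Mrpl41 had the highest ratio of TSS to gene body, with log2 values of 4.50, 4.94 and 4.40 in the WT libraries. Mrpl52, a mitochondria-specific large subunit protein, gave 3.60, 3.498 and 3.66. Mrpl18, a large subunit protein of the central protuberance, gave 3.54, 3.23 and 3.72. Every WT library of Mrpl41 lay above every WT library of the other two. The lowest ratios were those of Mrps24 (-2.49, -1.91 and -2.81), Mrpl1, a protein of the mobile stalk where spent transfer RNA leaves (-2.24, -1.75 and -2.37), and Mrpl47 (-1.74, -1.39 and -2.87), and the WT libraries of these 3 genes overlapped.

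Promoter sequences were searched for the motifs of a few factors. NRF1 and the ETS factor GABP are known regulators of nuclear genes for mitochondrial proteins, and YY1 and SP or KLF factors bind many promoters of widely expressed genes. RefSeq windows of GRCm38.p6, 250 bases before to 50 after a start, were available for 67 of 76 members (73 windows). The NRF1 motif (its consensus, searched on both strands like all others) was in 13 of 73 windows (17.8%), against 9.92% of windows of the genes counted and 4.6% of all promoters. The ETS and GABP motif CCGGAAG was in 26 (35.6%), against 17.2% and 8.86%. The YY1 motif AAGATGG was in 12 (16.4%), against 6.99% and 6.34%. The SP and KLF motif GGGCGG was in 38 (52.1%), against 63.6% and 35.7%, and the TATA box motif TATAAA in 5 (6.85%), against 6.87% and 13.6%. At least 1 of the NRF1, ETS and GABP, and YY1 motifs was in 42 windows (57.5%), against 30.1% and 18%. A match is a run of letters, not a bound site. NRF1 matches were in 21.7% of large and 11.1% of small subunit windows, ETS and GABP matches in 32.6% and 40.7%, and SP and KLF matches in 43.5% and 66.7%.

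The members with a match had higher median TSS levels in WT than those without, for NRF1 96.5 CPM (13 genes) against 64.3 CPM (54), for ETS and GABP 86.3 CPM (26) against 63.7 CPM (41), and for YY1 105 CPM (12) against 61.0 CPM (55). For the TATA box the order was the reverse, 44.9 CPM (5 genes) against 76.5 CPM (62). For SP and KLF it was 74.0 CPM with a match (33 genes) against 62.0 CPM without (34). The same comparison was not made over all genes counted, so the differences are not shown to be particular to the members. These are descriptions with no test. The windows of 6 members follow, 5′ to 3′ on the strand of the gene, in lower case with every motif match in capitals. Mrps6 is shown as the member with the most RPB1 at the start, where overlapping SP and KLF matches stand, and Mrpl49 as the next, with YY1 matches on either side of SP and KLF matches. Mrpl45, a large subunit protein at the membrane-facing tunnel exit, is the member with 3 NRF1 matches. Mrps26 is a small subunit gene with overlapping NRF1 matches beside an ETS and GABP match. The Mrps11 window is shown because the start of Mrpl46 lies 42 bp away on the other strand, and Mrpl47 is the member with the least RPB1 at the start and has no match.
Mrps6: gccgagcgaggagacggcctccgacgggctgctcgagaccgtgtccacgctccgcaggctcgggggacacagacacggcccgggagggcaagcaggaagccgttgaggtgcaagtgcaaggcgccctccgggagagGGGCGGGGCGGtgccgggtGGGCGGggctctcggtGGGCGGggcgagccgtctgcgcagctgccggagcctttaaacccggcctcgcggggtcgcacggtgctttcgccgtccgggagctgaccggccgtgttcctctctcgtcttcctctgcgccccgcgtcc
Mrpl49: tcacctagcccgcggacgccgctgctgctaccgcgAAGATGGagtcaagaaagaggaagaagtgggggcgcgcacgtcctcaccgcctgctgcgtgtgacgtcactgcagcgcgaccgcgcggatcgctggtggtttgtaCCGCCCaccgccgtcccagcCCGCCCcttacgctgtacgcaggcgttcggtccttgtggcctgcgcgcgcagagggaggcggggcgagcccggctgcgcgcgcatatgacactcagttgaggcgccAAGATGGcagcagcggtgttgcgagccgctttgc
Mrpl45: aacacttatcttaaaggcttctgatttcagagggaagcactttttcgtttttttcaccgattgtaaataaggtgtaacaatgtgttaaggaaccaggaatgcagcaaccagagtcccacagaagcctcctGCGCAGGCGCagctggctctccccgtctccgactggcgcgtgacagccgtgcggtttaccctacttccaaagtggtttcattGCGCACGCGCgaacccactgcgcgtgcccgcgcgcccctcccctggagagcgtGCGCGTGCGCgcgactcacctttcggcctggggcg
Mrps26: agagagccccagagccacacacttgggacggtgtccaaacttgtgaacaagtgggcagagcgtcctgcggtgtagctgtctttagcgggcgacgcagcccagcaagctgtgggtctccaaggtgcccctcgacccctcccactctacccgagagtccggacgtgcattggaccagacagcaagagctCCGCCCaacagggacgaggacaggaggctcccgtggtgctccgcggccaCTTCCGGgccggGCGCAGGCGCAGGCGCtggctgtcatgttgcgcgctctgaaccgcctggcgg
Mrps11: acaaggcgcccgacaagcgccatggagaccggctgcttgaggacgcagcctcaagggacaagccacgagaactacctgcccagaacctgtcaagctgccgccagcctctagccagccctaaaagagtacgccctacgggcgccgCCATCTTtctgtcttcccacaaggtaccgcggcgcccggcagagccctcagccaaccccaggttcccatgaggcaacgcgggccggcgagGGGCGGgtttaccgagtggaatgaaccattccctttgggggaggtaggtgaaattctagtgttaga
Mrpl47: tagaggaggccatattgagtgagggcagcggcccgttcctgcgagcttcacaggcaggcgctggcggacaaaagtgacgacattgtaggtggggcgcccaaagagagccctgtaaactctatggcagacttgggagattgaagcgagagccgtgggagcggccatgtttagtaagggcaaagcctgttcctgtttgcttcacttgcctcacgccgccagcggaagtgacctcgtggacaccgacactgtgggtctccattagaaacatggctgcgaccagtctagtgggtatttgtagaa

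The windows stand at chr16:92058086-92058385 (plus strand), chr19:6057706-6058005 (minus strand), chr11:97315466-97315765 (plus strand), chr2:130563507-130563806 (plus strand), chr7:78782881-78783180 (plus strand) and chr3:32736706-32737005 (minus strand) of GRCm38.p6, from RefSeq. The median window of the members held 22 CpG dinucleotides, against 20 for the genes counted.

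Many members start beside another gene. A start on the opposite strand lay within 1000 bp upstream for 26 of the 67 members with a window (38.8%), against 1942 of 9911 genes counted (19.6%). The 26 had a median WT TSS level of 94.0 CPM and the other 41 had 58.9 CPM. Partner functions were not counted, for members or for other genes, and the partners include Tmem63b, Klc4, Eme1, Hira, Ska3 and Zfp189. Some partners, picked by name, serve mitochondria or translation as well. Mrps11 and Mrpl46 face each other 42 bp apart, and Mrps12 lies 147 bp from Sars2 (mitochondrial seryl-tRNA synthetase). Mrpl43 lies 116 bp from Twnk (the mitochondrial DNA helicase), Mrpl47 308 bp from Ndufb5 (respiratory complex I) and Mrpl49 192 bp from Fau (a cytosolic ribosomal protein precursor). At such distances the TSS windows of both genes may share reads, and so may overlapping genes in the gene body. By RefSeq spans 20 of 76 members (26.3%) overlap another coding gene, against 20.9% of 12330 genes, and 47 (61.8%) overlap or lie within 1000 bp of one, against 41.4%. The members lie on 17 chromosomes, with 11 on chromosome 11 (14.5% against 8.66% of all genes) and 8 on chromosome 17 (10.5% against 5.04%).

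At the TSS no member passed the test of knockout against WT. With edgeR's quasi-likelihood test and adjustment over 12682 genes, 0 of 76 members were called higher and 0 lower at an adjusted p under 0.05, where 0.339% of all genes were called higher and 0% lower. DESeq2 called 0 members and 95 of the 12682 genes, and limma-voom called 0 members and 36 of those genes. With so few genes called by any tool, 0 of 76 does not set the members apart. At an unadjusted p under 0.05, 1 member was higher and 0 were lower, against 3.62% and 1.96% of all genes. The members' median log2 fold change was -0.018, against -0.009 for all genes, and was above 0 without a scaling factor (0.084, against 0.094) and with the 3 tables scaled together (0.222, against 0.24). Single members ranged from -0.59 to 0.45. For 66 of 76 the 95% interval lay within a 2-fold change in either direction (86.8%, against 71.2% of all genes), and for 38 within 1.5-fold. In whole glands, fewer cells of a type and less RPB1 per cell cannot be told apart. Within the mice whose numbers do not start with C (2 per genotype) the median was -0.043 with 0 called, and the other series holds 1 mouse per genotype and allows no test.

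**Figure D3:**
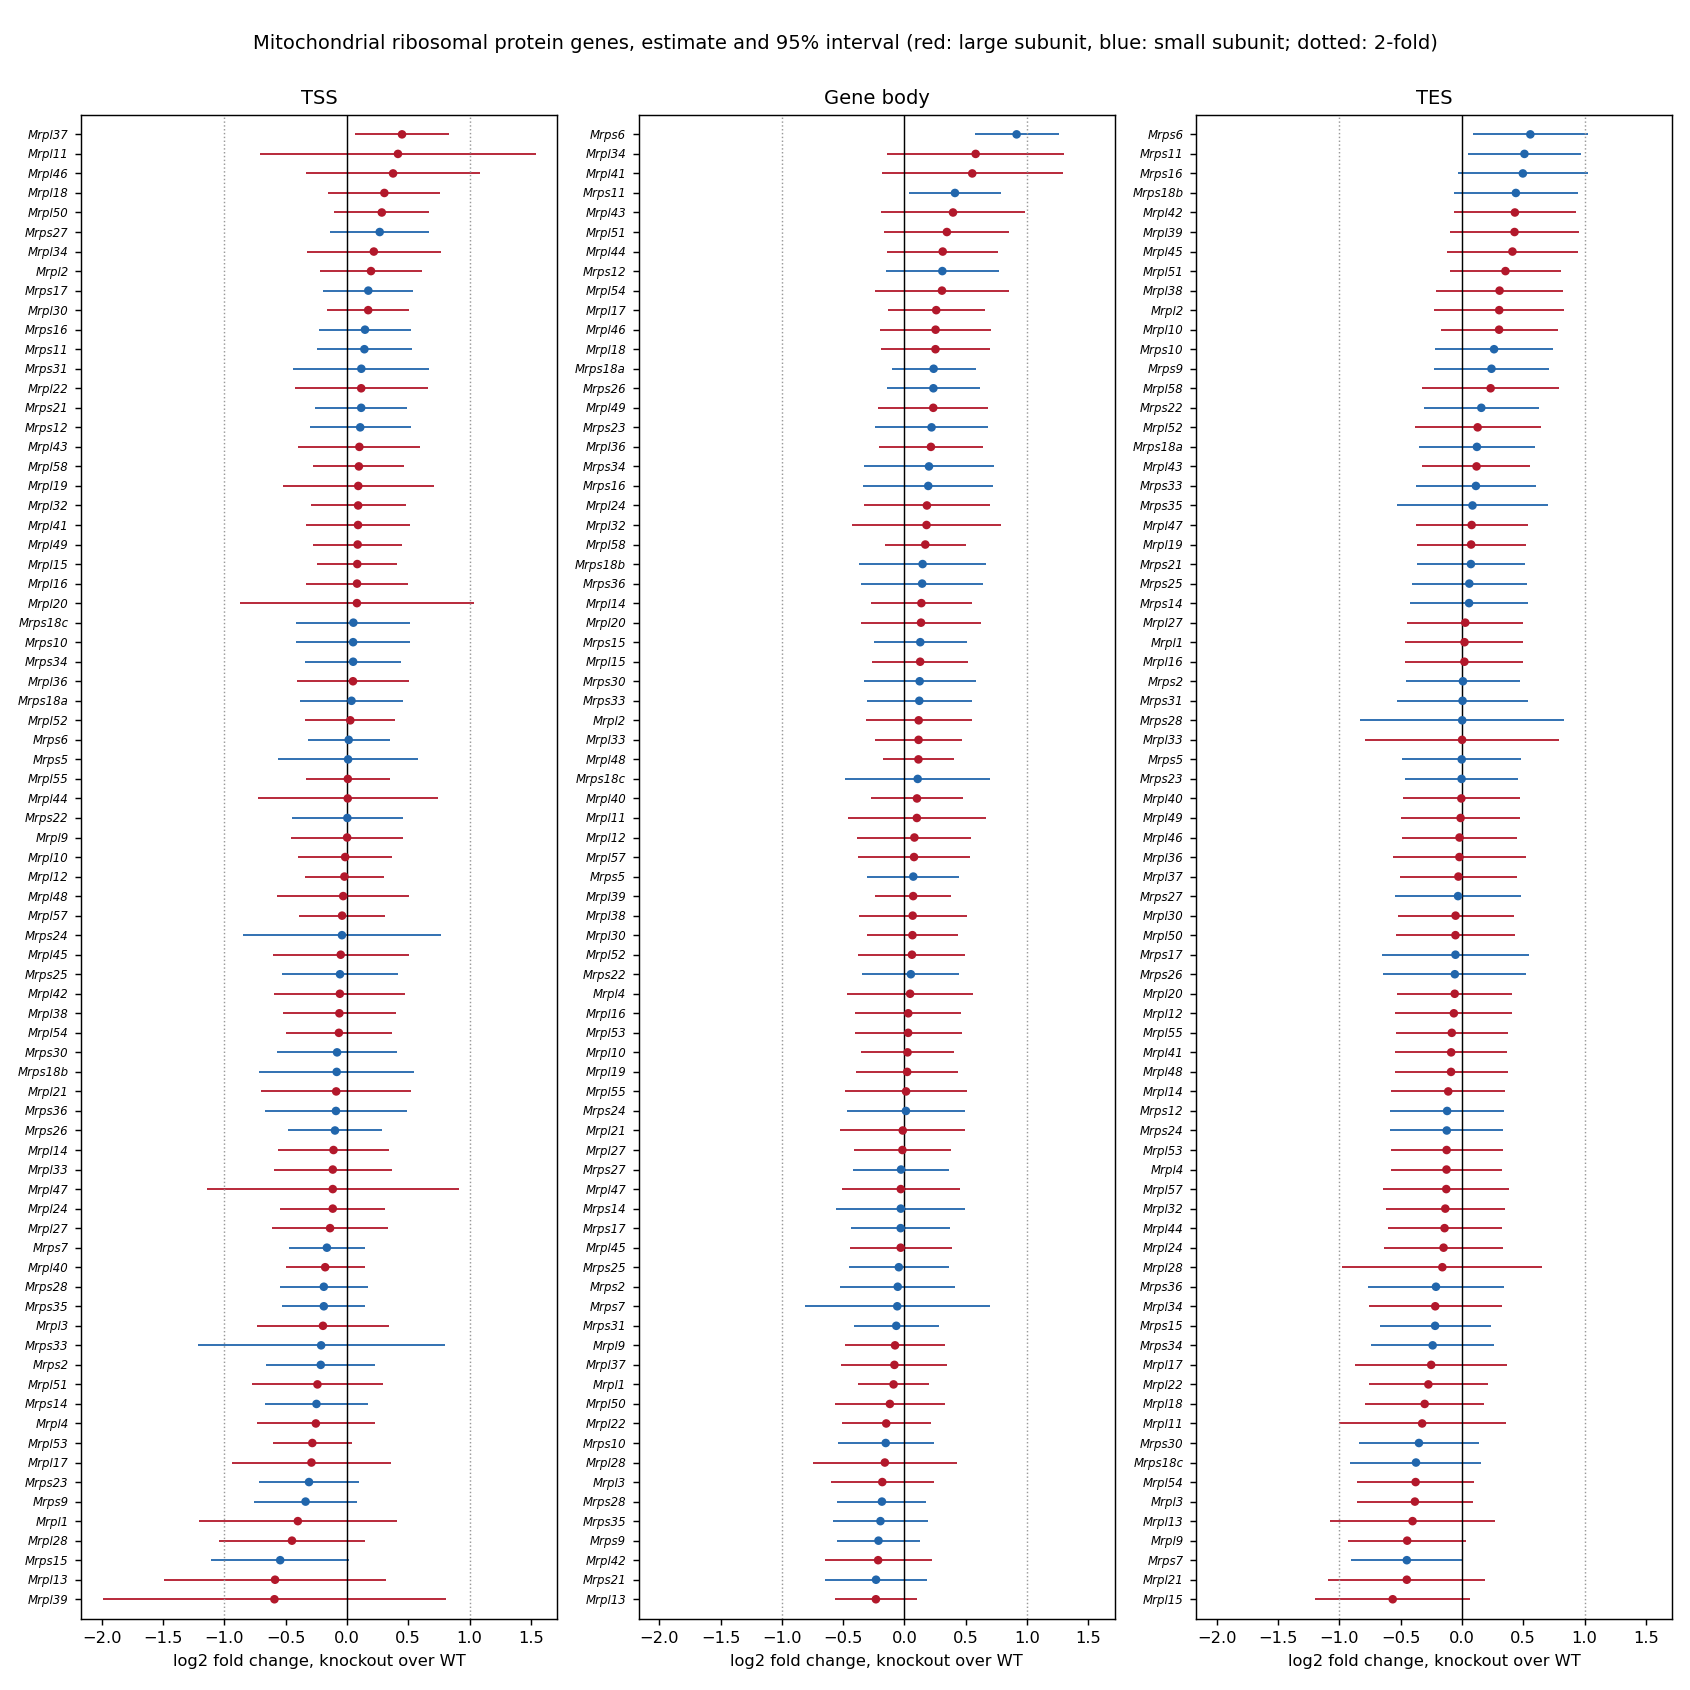
Log2 fold change of knockout over WT with its 95% interval for each of the 76 members at the TSS, gene body and TES, each panel ordered by its own estimate; red is large subunit, blue small subunit, and dotted lines mark a 2-fold change. Most intervals cross 0, and the highest estimate of the 3 panels is that of Mrps6 in the gene body at 0.92.

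Mrpl37, a mitochondria-specific large subunit protein, had the smallest p at the TSS. Its level was 93.1, 91.0 and 106 CPM over the WT and 110.3, 159.9 and 126 CPM over the knockout libraries. All 3 knockout libraries lay above all 3 WT libraries, with a log2 fold change of 0.45 ± 0.17 (SE), but the adjusted p was 0.742. Its start lies 128 bp from that of Cyb5rl on the other strand, whose TSS level was 91.5, 89.97 and 121 CPM over the WT and 111, 155 and 125 CPM over the knockout libraries (0.36 ± 0.18, adjusted p = 0.935). Mrpl50, another mitochondria-specific large subunit protein, gave 56.1, 59.0 and 59.8 CPM over the WT and 61.9, 78.9 and 71.3 CPM over the knockout libraries, without overlap (0.28 ± 0.18, adjusted p = 0.952). Mrpl18 (0.31) and Mrps27 (0.27) had the next smallest p among higher estimates, with overlapping groups. Mrpl37 and Mrpl50 were the only members whose knockout libraries all lay above WT at the TSS (2 of 76, 2.63%, against 6.47% of all genes).

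On the lower side, Mrps15, a conserved small subunit protein, gave 30.5, 31.0 and 33.6 CPM over the WT and 26.4, 18.9 and 20.5 CPM over the knockout libraries. The groups did not overlap, and the log2 fold change was -0.55 ± 0.26 with an adjusted p of 0.913. Mrpl53 (150.3, 147 and 141 CPM in WT, 107, 131 and 120.4 CPM in the knockout) and Mrps9 (66.4, 55.9 and 60.8 CPM in WT, 53.5, 41.6 and 50.9 CPM in the knockout) also did not overlap, with adjusted p of 0.949 and 0.952. Mrps23, at -0.31, had overlapping groups. With Mrps7 at -0.16, 4 of 76 members (5.26%) lay wholly below WT, against 4.93% of all genes.

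In the gene body no member passed the test either, and Mrps6 came closest. Of 76 members 0 were called higher and 0 lower, where 0.244% of 12714 genes were called higher and 0.00787% lower. Limma-voom called 0 members and 34 of the 12714 genes. DESeq2 called 1 member, Mrps6, and 179 of the 12714 genes. At an unadjusted p under 0.05, 2 were higher (Mrps6 and Mrps11) and 0 lower, against 4.06% and 0.991% of all genes. The median log2 fold change was 0.075 for members and -0.019 for all genes, with 51 of 76 estimates (67.1%) above 0 against 46.3%, but with the 3 tables scaled together the members' median was -0.019. Leaving out 1 library gave members' medians of -0.016 without WT replicate 2 (32 above 0), 0.021 without knockout replicate 3, 0.132 without knockout replicate 1 and 0.189 without WT replicate 3 (62 above 0). For 73 of 76 members the 95% interval lay within a 2-fold change. Within the mouse numbers not starting with C the median was 0.14, and with a depth class as covariate it was 0.006.

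Gene body estimates were higher in shorter genes, among members and among all genes. With genes split by length into 5 bins of equal number, in the shortest bin, 0.479 to 7.69 kb, the median gene body log2 fold change was 0.15 over all 2469 genes and 0.12 over 39 members. In the next bin, up to 16.7 kb, it was 0.037 over all genes and 0.052 over 23 members. The medians were in the third bin -0.033 and -0.12 (8 members), in the fourth -0.063 and 0.012 (4 members), and in the longest bin it was -0.13 over all genes and -0.11 over 2 members. The 2853 genes between the members' length quartiles had a median of 0.082, with 65.8% above 0. Cytosolic ribosomal protein genes, shorter still at a median of 3.15 kb, had a median of 0.23, with 73 of 76 (96.1%) above 0 and 0 called. Their median level was 10.4, 7.30 and 12.6 CPM per kb over the WT and 10.6, 13.4 and 12.6 over the knockout libraries. The genotypes thus overlapped, and WT replicate 2, the library with the fewest counts, was the lowest. Neither this list nor the length bins were refitted without a library. The part of gene length or of any quantity that moves with it in the members' estimates was not tested.

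**Figure D4:**
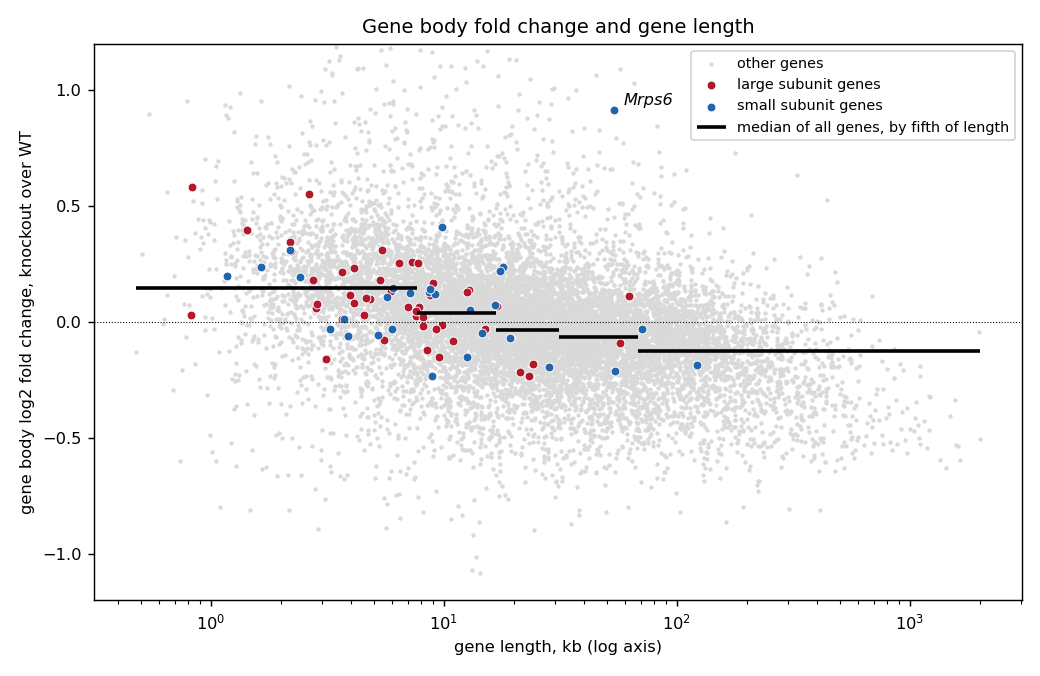
Gene body log2 fold change of knockout over WT against gene length in kb on a log axis, for all genes (grey) and members (red large, blue small); black bars are medians of all genes in each of 5 length bins, from 0.15 in the shortest to -0.13 in the longest, with each table scaled by itself. Members sit around the bars, and Mrps6 stands apart at 0.92.

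Mrps6 lies at chr16:92058336-92112227 and spans 53.9 kb. Its gene body level was 126, 105 and 101 CPM over the WT and 189.6, 233 and 204 CPM over the knockout libraries. Every knockout library lay well above every WT library, with a log2 fold change of 0.92 ± 0.15 (95% interval 0.57 to 1.26) and an adjusted p of 0.0763, so it did not pass. Over the other settings that adjusted p ran up to 0.649, within the mouse numbers not starting with C, and it passed with DESeq2 (1.41e-05) and with a depth class as covariate in edgeR (0.0465). At the TES it gave 54.4, 55.9 and 34.99 CPM over the WT and 64.4, 84.5 and 61.0 CPM over the knockout libraries, again without overlap (0.56 ± 0.23, adjusted p = 0.523). At the TSS the estimate was 0.014, with an interval of -0.32 to 0.35. The log2 ratio of TSS to gene body was 0.83, 1.09 and 1.04 in WT and 0.39, -0.14 and -0.017 in the knockout, a difference of -0.91 ± 0.21 (adjusted p = 0.84).

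Slc5a3, the gene for a myo-inositol transporter, starts beside Mrps6 at chr16:92058322-92087473, and 29138 bp of the 2 genes overlap. Its gene body level was 75.2, 63.7 and 59.1 CPM over the WT and 127, 140.2 and 130.2 CPM over the knockout libraries, and it rose by 1.01 ± 0.14 on the log2 scale (adjusted p = 0.0444). At its TES it gave 52.6, 45.1 and 31.1 CPM over the WT and 96.6, 116 and 89.0 CPM over the knockout libraries and rose by 1.24 ± 0.24 (adjusted p = 0.0015). The TES call held in all settings tried, whereas the gene body call was lost when any single library was left out (adjusted p 0.0613 to 0.316), and within the mouse numbers not starting with C (0.649). It was also lost with the replicate block (0.265), with the mouse number series as covariate (0.127) and with the 3 tables scaled together (0.181). Reads over the shared stretch cannot be told apart between Mrps6 and Slc5a3. The Mrps6 value without that stretch was not tested.

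**Figure D5:**
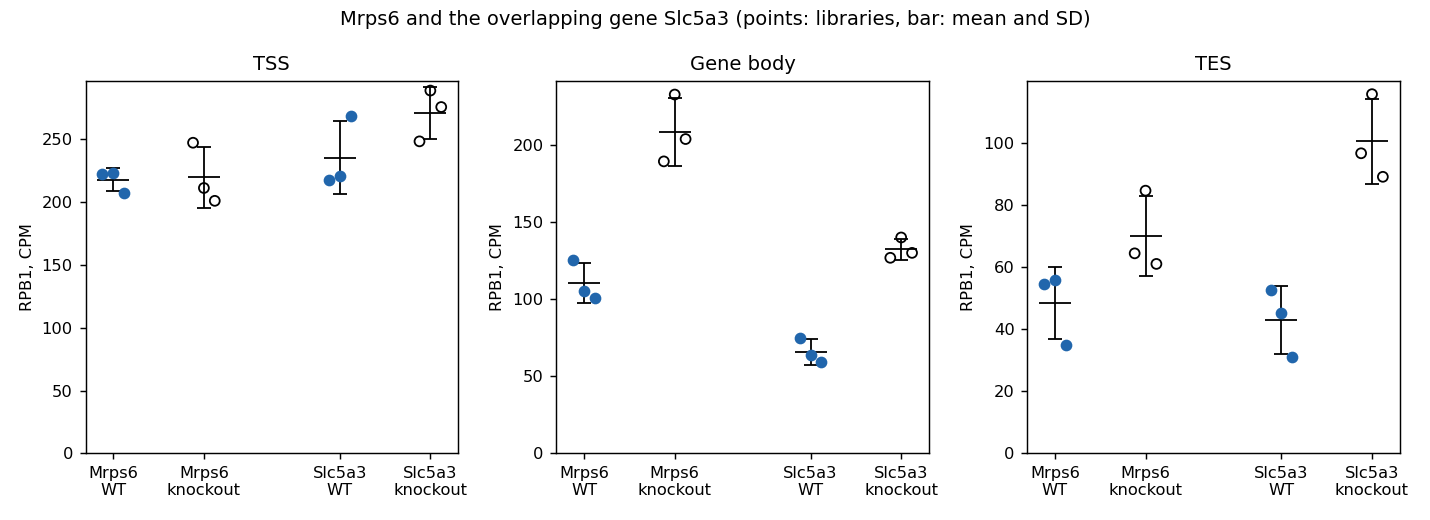
RPB1 in CPM at the TSS, gene body and TES of Mrps6 and of the overlapping gene Slc5a3; points are libraries (filled WT, open knockout) and bars the mean and SD of 3 mice. Both for the gene body and for the TES the knockout points lie above the WT points in these genes, and at the TSS of Mrps6 the groups overlap.

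Mrps11, a conserved small subunit protein, was the other member with a p under 0.05 in the gene body. It gave 24.8, 21.2 and 22.1 CPM over the WT and 29.1, 34.8 and 26.7 CPM over the knockout libraries, and at the TES 78.1, 69.6 and 61.2 CPM over the WT and 98.1, 119 and 79.7 CPM over the knockout libraries. The groups overlapped at neither region, with log2 fold changes of 0.41 ± 0.16 (adjusted p = 0.896) and 0.51 ± 0.23 (adjusted p = 0.626). Its head-to-head partner Mrpl46 had gene body values of 17.6, 15.9 and 24.9 CPM over the WT and 22.2, 23.4 and 24.2 CPM over the knockout libraries, which overlapped. Mrpl34 (0.58 ± 0.31), with 25 to 108 gene body counts, and Mrpl41 (0.55 ± 0.32) had overlapping groups and adjusted p of 0.934. On the lower side Mrpl13, a conserved large subunit protein, gave 30.4, 36.7 and 30.4 CPM over the WT and 28.5, 26.4 and 28.1 CPM over the knockout libraries, without overlap (-0.23 ± 0.15, adjusted p = 0.934). Mrps9 (-0.21), Mrps21 (-0.23) and Mrps28 (-0.18) had overlapping groups. In all, 4 members (5.26%) lay wholly above WT and 2 (2.63%) wholly below, against 6.51% and 3.87% of all genes.

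At the TES 0 members were called higher and 0 lower, where 0.82% of 12680 genes were called higher and 0.0946% lower. DESeq2 called 0 members and 108 of the 12680 genes, and limma-voom called 0 members and 117 of those genes. At an unadjusted p under 0.05, 2 were higher (Mrps6 and Mrps11) and 0 lower, against 4.37% and 2.48%. The median log2 fold change was -0.025, against -0.016 for all genes, with -0.123 to 0.015 over the alternative settings, so its sign was not fixed. For 70 of 76 the 95% interval lay within a 2-fold change. Mrps16, a conserved small subunit protein, gave 235, 207 and 276 CPM over the WT and 296, 413 and 305 CPM over the knockout libraries (0.50 ± 0.26, adjusted p = 0.784). Mrps18b gave 163, 156 and 188 CPM over the WT and 208, 244 and 238 CPM over the knockout libraries (0.44 ± 0.25, adjusted p = 0.835). In both genes all knockout libraries lay above WT. In all, 9 members (11.8%) lay wholly above WT at the TES, against 6.69% of all genes, and 3 (3.95%) wholly below, against 4.83%. The 9 were Mrpl2, Mrpl10, Mrpl38, Mrpl39, Mrpl42, Mrps6, Mrps11, Mrps16 and Mrps18b.

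Mrps7 had the smallest p among lower TES estimates, with 118, 95.1 and 119.8 CPM over the WT and 85.8, 74.0 and 85.1 CPM over the knockout libraries. The groups did not overlap (-0.45 ± 0.23, adjusted p = 0.735), as at its TSS. Its span overlaps Gga3 and Mif4gd, whose TES estimates were -0.28 and -0.38 with adjusted p of 0.958 and 0.856. Mrpl9 (-0.45), Mrpl15 (-0.57) and Mrpl3, which lies near the peptide-bond centre (-0.38), had overlapping groups and adjusted p of 0.787, 0.815 and 0.883. Within the mouse numbers not starting with C the members' TES median was -0.02 with 0 called.

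The TSS to gene body ratio, tested within libraries as a region by genotype interaction, gave 0 members called higher and 0 lower, where 0% of 12679 genes were called in either direction. At an unadjusted p under 0.05, 1 was higher (Mrpl37) and 3 lower (Mrps6, Mrps15 and Mrps23), against 1.81% and 1.84%. The members' median change was -0.12 against -0.016 for all genes, with 18 of 76 estimates (23.7%) above 0 against 47.8%. That median was -0.056 without WT replicate 2 (31 above 0), -0.076 without knockout replicate 3, -0.186 without knockout replicate 1 and -0.229 without WT replicate 3. It was -0.051 without a scaling factor (31 above 0) and -0.041 with the depth class (34 above 0). The genes between the members' length quartiles had a median of -0.11, with 35.8% above 0. The ratio was not refitted with the 3 tables scaled together, and under that scaling the members' TSS and gene body medians were 0.22 and -0.019, against 0.24 and -0.12 for all genes. Mrpl37 had log2 ratios of 2.26, 2.05 and 1.92 in WT and 2.54, 2.79 and 2.41 in the knockout, a difference of 0.51 ± 0.21 without overlap (adjusted p = 0.955). Mrps23 had 2.89, 2.78 and 2.79 in WT and 2.56, 2.12 and 2.24 in the knockout, without overlap (-0.52 ± 0.19, adjusted p = 0.955). For Mrpl50 the difference was 0.39 ± 0.24 with overlapping groups. Across members, 1 (1.32%) lay wholly above and 8 (10.5%) wholly below WT, against 4.54% and 4.95% of all genes.

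For the TES to gene body ratio 0 members were called higher and 0 lower, where 0.00789% of 12677 genes were called in each direction. At an unadjusted p under 0.05, 1 was higher and 3 lower, against 2.48% and 3.21%; the lower ones were Mrpl15, Mrpl41 and Mrpl54. The median was -0.11 against -0.014 for all genes and -0.098 for genes between the members' length quartiles. It was -0.036 without knockout replicate 3, -0.054 without WT replicate 2, -0.168 without knockout replicate 1 and -0.182 without WT replicate 3. In the last of these fits 15 of 76 members had an unadjusted p under 0.05. So did 1298 of 12684 genes, against 722 of 12677 with all libraries. Without a scaling factor the members' median was -0.197, against -0.102 for all genes, and with the depth class -0.07. Mrpl42, a mitochondria-specific large subunit protein, had log2 ratios of 0.62, 0.36 and 0.73 in WT and 1.30, 1.20 and 1.08 in the knockout, a difference of 0.62 ± 0.24 (adjusted p = 0.839). Mrpl54, a large subunit protein, had 2.60, 2.76 and 2.72 in WT and 1.72, 2.48 and 1.76 in the knockout (-0.69 ± 0.25, adjusted p = 0.793). Neither gene's groups overlapped. With Mrpl2, 2 members (2.63%) lay wholly above WT, against 5.57% of all genes, and 3 (3.95%) wholly below, against 6.65%. Mrps9 (0.46 ± 0.22) and Mrpl41 (-0.66 ± 0.28) had overlapping groups and an adjusted p of 0.839.

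Large and small subunit genes had median estimates (log2) of -0.015 and -0.041 at the TSS. In the gene body the medians were 0.078 and 0.072, and at the TES -0.059 and 0.005. With TMM scaling and no covariate edgeR called 0 in any region. With the depth class as covariate it called 1 large subunit gene at the TSS, Mrpl28 (adjusted p = 0.0478), where 158 of 12682 genes were called. In the gene body it then called 1 small subunit gene, Mrps6 (adjusted p = 0.0465), where 95 of 12714 genes were called. Without the covariate Mrpl28 stood at -0.45 ± 0.27 at the TSS (adjusted p = 0.952). Above 0 were 23 of 47 large and 14 of 29 small subunit genes at the TSS, 34 and 17 for the gene body, and 16 and 16 for the TES. The difference between subunits was not tested, as genes are not replicates. Mrps30 and Mrps18a are named for the small subunit, but their proteins are placed in the large subunit by structural work, and Mrps36 is now known as a component of the alpha-ketoglutarate dehydrogenase complex. Mrps30 had TSS levels of 51.7, 44.5 and 76.8 CPM over the WT and 50.7, 60.8 and 54.9 CPM over the knockout libraries. Mrps18a had 89.3, 115 and 132 CPM over the WT and 96.8, 111 and 137 CPM over the knockout libraries, and overlaps Rsph9 over 6871 bp. Mrps36 had 57.7, 54.8 and 42.9 CPM over the WT and 68.1, 43.5 and 34.8 CPM over the knockout libraries, and the genotypes overlapped in all 3 genes. With those genes reassigned, or left out for Mrps36, the WT median TSS levels were 70.3 CPM for large and 76.8 CPM for small subunit genes, and the gene body medians of the log2 fold change were 0.081 and 0.032.

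Genes for the rest of the mitochondrial translation and transcription machinery were read with the same tests. None of 6 genes listed as mitoribosomal with other symbols, 15 translation factor, 22 ribosome assembly, 22 aminoacyl-tRNA synthetase or 14 mitochondrial transcription genes was called in any region by edgeR. These list names are loose. The first list was drawn up with Oxa1l, an inner membrane insertase, and the synthetase list with the amidotransferase genes Gatb, Gatc and Qrsl1. The transcription list includes Twnk and Polg2, which serve mitochondrial DNA replication, and nuclear regulators. At an unadjusted p under 0.05 the synthetases had 1 higher and 1 lower gene in the gene body and 1 higher at the TES, the other-symbol and assembly lists 1 higher each in the gene body, the transcription list 1 lower at the TES, and the translation factors 0. Of all genes, 4.06% were higher and 0.991% lower in the gene body at that threshold, and 4.37% and 2.48% at the TES. In lists this short, 1 gene does not set a list apart from those shares. Among the genes with other symbols, Chchd1, a small subunit protein, had a gene body estimate of 0.44 ± 0.19 (adjusted p = 0.934). Dap3, a small subunit GTPase, had a TSS estimate of -0.55 ± 0.28 (adjusted p = 0.918) and Aurkaip1 one of -0.38 ± 0.24 (adjusted p = 0.952). Of the translation factors, Lrpprc, which stabilises mitochondrial messages, stood at -0.27 ± 0.14 in the gene body (adjusted p = 0.934). Mterf4, which guides ribosomal RNA methylation, stood at 0.57 ± 0.18 in the gene body (adjusted p = 0.62). Of the synthetases, Cars2 stood at 0.66 ± 0.18 (adjusted p = 0.393) and Aars2 at -0.51 ± 0.18 (adjusted p = 0.723) in the gene body, and Tars2 at 0.75 ± 0.28 at the TES (adjusted p = 0.355). Gabpb1, the partner subunit of GABP, stood at -0.69 ± 0.28 at the TES (adjusted p = 0.495), and the NRF1 gene at -0.28 ± 0.15 at the TSS (adjusted p = 0.952). Of 89 respiratory chain genes 0 were called, and 32 (36%) had a TSS estimate above 0, against 48.4% of all genes. At the TSS, 3.62% of all genes were higher and 1.96% lower at an unadjusted p under 0.05. With an unadjusted p under 0.05 there, Ndufs1 of complex I was higher (0.65 ± 0.15, adjusted p = 0.147), and Atp5o of ATP synthase (-1.54 ± 0.42, adjusted p = 0.358) and Cox7a1 of complex IV (-0.47 ± 0.19, adjusted p = 0.824) were lower. At the TES Ndufb8 of complex I stood at -0.66 ± 0.23 (adjusted p = 0.275). Of 76 cytosolic ribosomal protein genes 0 were called as well.

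Markers of other cell types differed with genotype in part. Of 3 fibroblast and capsule markers counted, of 4 listed, Pdgfra and Col3a1 fell at the TES by 1.71 and 1.33 on the log2 scale (edgeR, adjusted p = 0.000538 and 0.0145), and Col1a1 did not pass (adjusted p = 0.969). Their summed TES level ranged from 74.5 to 209 CPM in WT against 52.1 to 75.9 CPM in the knockout, and in the gene body from 115 to 306 CPM and from 82.0 to 101 CPM, the latter without overlap. The 4 medulla markers summed at the TSS to 74.2 to 89.3 CPM in WT against 94.0, 178.5 and 92.2 CPM in knockout replicates 1 to 3, without overlap. Their single TSS estimates ran from -0.40 to 0.89, with 2 above 0 and 2 below. In gene bodies the medulla markers summed to 153 to 348 CPM in WT and 219 to 655 CPM in the knockout. The 7 cortex markers summed to 1253 to 2550 CPM in WT gene bodies and 1639 to 2037 CPM in the knockout. The 3 endothelial markers counted, of 4 listed, summed at the TSS to 109 to 122.5 CPM in WT against 95.3 to 108 CPM in the knockout, without overlap. They overlapped in the gene body (282 to 379 against 256 to 302 CPM) and at the TES (176.5 to 254 against 174 to 186 CPM). The 2 macrophage markers, of 4, summed at the TES to 297 to 425 CPM in WT against 451.5 to 472 CPM in the knockout, without overlap, where Cd68 stood at 0.42 and Lyz2 at -0.27. They overlapped at the TSS (108 to 155 against 90.9 to 136 CPM) and in the gene body (20.5 to 31.8 against 19.3 to 28.0 CPM). At the TES the medulla (408 to 1215 against 687 to 2045 CPM) and cortex markers (2948 to 6835 against 4596 to 5802 CPM) overlapped. No gene of these last 4 marker lists was called. The part of cell makeup in the members' values was not tested.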

How the data were processed

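RPB1 ChIP-seq read counts per gene at the TSS, gene body and TES were used as deposited by the authors, raw counts in 3 tables of 12718 genes. Per the submitters' processing notes, the build was GRCm38 (mm10) and the tools named include BWA, MACS2, HOMER, Picard, Trimmomatic and bcl2fastq 2.20, with edgeR and limma. Window widths, the counting step and any use of strand or input were not stated in the labels or notes. The deposited log2 CPM table was not used. Each region was tested with edgeR 4.0.16 (R 4.3.3; TMM scaling, filterByExpr with a minimum count of 10 and total of 15, quasi-likelihood F test, Benjamini-Hochberg adjustment over all genes tested), and a call is an adjusted p under 0.05. Ratios of TSS or TES to gene body were tested as region by genotype interactions with the library as a block. Errors of log2 fold changes are SE. Log2 CPM has a prior count of 2, and gene body CPM was divided by the RefSeq span (GRCm38.p6), matched by symbol for 12380 genes. DESeq2 1.42.0, limma-voom (limma 3.58.1), other scalings, filters and covariates, and leaving out each library were alternatives. The fits were tested on simulated counts. Named genes are the 4 members of smallest p per region and direction, 2 per ratio and direction, the members at the ends of the WT levels, the 3 with a subunit other than their symbol's, and up to 3 per other list; Mrpl46, Mrps7 at the TSS, Slc5a3 and other neighbours were added after their values were seen. The members and lists were chosen with earlier results of these data known. Total counts were 14511177 to 28190157 per library. The intervals rest on 3 mice per genotype, and the part of depth in their width was not tested.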

Additional observations from a re-analysis of the deposited data

How the results depend on the processing

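Of the values under alternatives for the members named by the rule, 510 kept their direction and side of the threshold, and 2 came to pass it, both Mrps6 in the gene body (0.913 with the depth class, adjusted p = 0.0465, and 0.904 with DESeq2, adjusted p = 1.41e-05). Those members had the smallest p per direction, and the alternatives used the same libraries or a part of them. Apart from Mrps6 in the gene body they started far above the threshold, so the count says little about stability. The sign of the members' median was not stable in any of the 3 regions, at 0.025 and 0.018 for the TSS without WT replicate 3 and knockout replicate 2, -0.016 and -0.019 for the gene body without WT replicate 2 and with the 3 tables scaled together, and 0.015 for the TES without WT replicate 3. The medians of both ratios stayed below 0 in all settings run, but neither ratio was refitted with the 3 tables scaled together. Under that scaling the members' TSS median was 0.222 and their gene body median was -0.019. The settings run therefore do not show that the sign of the TSS to gene body median is fixed. The Mrps6 TSS estimate, 0.014, went to -0.076 without knockout replicate 1. The count of members called went from 0 to 1 at the TSS with the depth class in edgeR (Mrpl28, adjusted p = 0.0478), and from 0 to 1 in the gene body with the depth class and with DESeq2. Over all genes those fits called 158 at the TSS with the depth class, and in the gene body 95 with the depth class and 179 with DESeq2. The members' median moved at the TSS from -0.018 to 0.084 without a scaling factor and to 0.222 with the 3 tables scaled together, and at the TES from -0.025 to -0.123 with the latter. The large minus small median at the TES, -0.063, ran from -0.195 to -0.001 when 1 library was left out. Calls over all genes depended more on the setting, from 5 to 158 at the TSS, 0 to 179 over gene bodies and 61 to 194 at the TES. With 3 mice per genotype, the 95% interval at the TSS stayed within a 2-fold change for 66 of 76 members.

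The replicate numbers are shared by the genotypes, but the mice differ, and same-numbered libraries did not deviate together in every pair (correlations of 0.44, -0.21 and 0.36 at the TSS, 0.08, -0.58 and 0.27 over gene bodies, and 0.03, -0.31 and 0.21 at the TES), nor did every library correlate best with its own number. With the replicate block 0 members were called in each of the 5 tests, and calls over all genes went from 43 to 100 at the TSS, from 32 to 0 over gene bodies and from 116 to 194 at the TES.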
